A study of Homo sapiens with 34 samples.

Results

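The HOX genes of the HOXA, HOXB, HOXC and HOXD clusters were followed through 4 human prostate cell lines, 2 surfaces and 3 media. They were taken from the count table by a list of 38 symbols, whose rule uses no measured value, and make up 38 of its 26336 genes: 10 of HOXA, 10 of HOXB, 9 of HOXC and 9 of HOXD. RWPE is labelled non-tumorigenic prostate epithelium, LNCaP a lymph node metastasis, and VCaP and MDAPCa2a bone metastases. Each line is a single established culture, so a difference between lines is a difference between these cultures and not between kinds of tumour. The culture surface was plastic or carried amorphous calcium phosphate (ACP), a mineral film that the study offers as a stand-in for bone. The 34 libraries of poly(A) RNA form 17 groups of 2, apart from 3 libraries of RWPE with androgen on ACP and a single one of VCaP in stripped serum on plastic.

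RWPE was grown in keratinocyte serum-free medium with EGF and pituitary extract on plastic, on ACP, and on ACP with androgen. LNCaP and VCaP were each grown in their own medium with fetal bovine serum (control medium) on plastic and on ACP, in serum stripped of steroids with charcoal-dextran, on both surfaces, and in stripped serum with androgen on ACP. MDAPCa2a had the same groups without ACP in control medium, and its plastic carried a protein coating that its ACP surface did not. The androgen is labelled as 100 mM and is called DHT in the titles and testosterone in the treatment labels. The protocol puts it in stripped serum, and the labels do not say what serum RWPE received with it. Groups are labelled day 4, except plastic control, which is labelled continuous culture although the protocol gives it the same 4 days. Nothing in the labels says that replicates came from separate cultures, so p-values measure only the spread between these samples.

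HOX genes encode homeodomain transcription factors that specify position along the body axis in the embryo. Within a cluster they are numbered along the chromosome, low numbers acting toward the head and high numbers (the posterior groups) toward the tail and the urogenital tract, and adult epithelia keep part of this code. HOXB13, at the posterior end of the HOXB cluster, is a marker of prostate epithelium and works there with androgen signalling. HOXA13 and HOXD13 pattern the urogenital sinus from which the prostate forms.

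Promoter sequence was at hand in RefSeq (GRCh38.p14) for 20 of the 38 genes. The 250 bases before the start of 5 of them are shown, 5′ to 3′ along the gene's strand, because the levels of these genes carry the main contrasts: HOXD10 was high in RWPE and had almost no reads elsewhere, HOXA13 and HOXA10 were highest in VCaP, HOXC4 was lowest in RWPE, and HOXA10, HOXA11 and HOXC4 moved with serum and androgen in LNCaP. Capitals mark CpG pairs, the sites of DNA methylation.
HOXD10, chr2:176116528-176116777, plus strand: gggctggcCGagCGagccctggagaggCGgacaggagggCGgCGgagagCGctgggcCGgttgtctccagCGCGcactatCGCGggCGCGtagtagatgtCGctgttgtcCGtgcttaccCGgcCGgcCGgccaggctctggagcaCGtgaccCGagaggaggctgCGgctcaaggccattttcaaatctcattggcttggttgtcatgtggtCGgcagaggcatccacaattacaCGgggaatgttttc
HOXA13, chr7:27200092-27200341, minus strand: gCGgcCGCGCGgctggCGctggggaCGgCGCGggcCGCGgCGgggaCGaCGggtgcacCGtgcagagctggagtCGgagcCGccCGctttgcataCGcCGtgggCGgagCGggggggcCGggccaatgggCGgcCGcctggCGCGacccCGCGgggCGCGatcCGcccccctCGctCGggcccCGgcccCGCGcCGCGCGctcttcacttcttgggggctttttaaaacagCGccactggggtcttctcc
HOXA10, chr7:27179862-27180111, minus strand: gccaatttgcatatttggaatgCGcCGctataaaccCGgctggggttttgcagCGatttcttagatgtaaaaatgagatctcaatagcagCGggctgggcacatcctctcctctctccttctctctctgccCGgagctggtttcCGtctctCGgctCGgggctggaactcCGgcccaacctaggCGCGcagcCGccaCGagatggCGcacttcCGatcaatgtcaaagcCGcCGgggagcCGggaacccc
HOXA11, chr7:27185233-27185482, minus strand: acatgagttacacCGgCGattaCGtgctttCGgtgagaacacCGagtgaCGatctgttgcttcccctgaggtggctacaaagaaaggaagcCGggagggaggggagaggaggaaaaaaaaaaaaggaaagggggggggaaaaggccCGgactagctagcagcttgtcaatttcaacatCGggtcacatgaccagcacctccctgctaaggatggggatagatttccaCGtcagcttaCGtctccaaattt
HOXC4, chr12:54016638-54016887, plus strand: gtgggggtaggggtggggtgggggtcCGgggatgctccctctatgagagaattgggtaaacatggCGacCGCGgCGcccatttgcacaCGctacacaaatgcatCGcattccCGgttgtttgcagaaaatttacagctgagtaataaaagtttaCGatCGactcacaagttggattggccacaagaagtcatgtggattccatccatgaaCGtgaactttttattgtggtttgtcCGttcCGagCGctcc
The HOXA13 window held 40 CpG pairs, more than 97.9% of 27305 promoters of the same length, HOXD10 held 23, HOXA10 19, HOXC4 14 and HOXA11 11, where the median promoter held 11. The palindrome of AGAACA and, 3 bases on, its reverse complement TGTTCT, a consensus of steroid receptor sites, was in none of the 5 windows on either strand and in 0.00366% of all promoters. Its left arm AGAACA was found once, in HOXA11, and in 12.4% of all promoters. CCAAT was found in every window but that of HOXA11 (33% of all promoters), and TATAAA in HOXA10 alone (11.1% of all promoters). These are letter matches in a short window and show neither binding nor its absence. Each window lies before the first listed start of its gene, and whether these lines use that start was not tested.

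Libraries held 15.44 M to 44.78 M counts, and levels are given as CPM, counts divided by the library's TMM-scaled total in M. RWPE carried basal keratin, with KRT5 at a median of 7323 CPM against 4.67 to 5.96 in the cancer lines. The luminal secretory gene KLK3 had a median of 8.57 CPM in RWPE, 89.3 in VCaP, 2482 in LNCaP and 7130 in MDAPCa2a. Luminal genes did not all rank the lines alike. Medians of TMPRSS2 and KRT8 had the same order as KLK3, KRT8 with 408 CPM in RWPE and 487 to 806 in the cancer lines. KLK2 was highest in VCaP at 4151 CPM, with 1097 for MDAPCa2a, 86.2 for LNCaP and 5.58 for RWPE. KRT18 was highest in RWPE at 622 CPM, against 352 to 510 in the cancer lines. The plastic control libraries stood apart from the others of their line. The summed level of 5 liver genes was 16.98 to 18.5 CPM in RWPE plastic control against 0.942 to 2.95 in the other RWPE libraries, 14.0 to 20.1 against 0.621 to 1.72 in LNCaP and 8.56 to 14.3 against 0.443 to 3.02 in MDAPCa2a. In VCaP the ranges overlapped, at 73.7 to 156 and 29.5 to 326 CPM. FGG and FGB, which mark hepatocytes, had no reads in the other libraries of RWPE and MDAPCa2a. A library batch and the plastic control group therefore cannot be told apart. Some HOX reads followed the same split: HOXB4, HOXB6, HOXB7, HOXB8, HOXD3 and HOXD4 had reads in MDAPCa2a only in the plastic control libraries, with 3 to 15 reads each. HOXB2 and HOXB4 did so in VCaP, with 1 to 3 reads, and HOXB2 in RWPE, with 3. Comparisons of lines on plastic rest on those libraries, and the same comparisons on ACP with androgen use none of them. Values of single genes below are on plastic unless androgen is named.

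The lines differed widely in how many HOX genes they expressed. Taking a median of at least 1 CPM over a line's libraries as detected, RWPE had 30 of 38 genes, VCaP 15, LNCaP 14 and MDAPCa2a 7. At 0.5 CPM MDAPCa2a had 12. The counts depend on the cut: the count filter within a line kept 32 in RWPE, 27 in VCaP, 18 in LNCaP and 12 in MDAPCa2a. Of all genes that filter kept 14293, 15614, 14656 and 13626 in the same order. The share of all genes at 1 CPM or more is not given here. RWPE covered all 10 HOXA genes, 6 of 10 HOXB, 7 of 9 HOXC and 7 of 9 HOXD. VCaP had 7 HOXA genes, 1 HOXB, 5 HOXC and 2 HOXD. LNCaP had 3 HOXA, 4 HOXB and 7 HOXC genes, and MDAPCa2a 2 HOXA, 1 HOXB and 4 HOXC genes, and neither had a HOXD gene. Detection was counted by position in the cluster, without a test. Of the 7 genes of groups 1 to 3, RWPE had 4, LNCaP 1, VCaP 1 and MDAPCa2a 0. Of the 15 genes of groups 4 to 8, RWPE had 12, LNCaP 5, VCaP 6 and MDAPCa2a 2. Of the 16 genes of groups 9 to 13, RWPE had 14, LNCaP 8, VCaP 8 and MDAPCa2a 5. HOXA10, HOXB13, HOXC4, HOXC6 and HOXC13 were detected in all 4 lines, 4 genes in 3 lines, 11 in 2 lines and 12 in 1 line. HOXB1, HOXB2, HOXB5, HOXB8, HOXD3 and HOXD12 were detected in none, and HOXB1 had no read in any library.

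**Figure D1:**
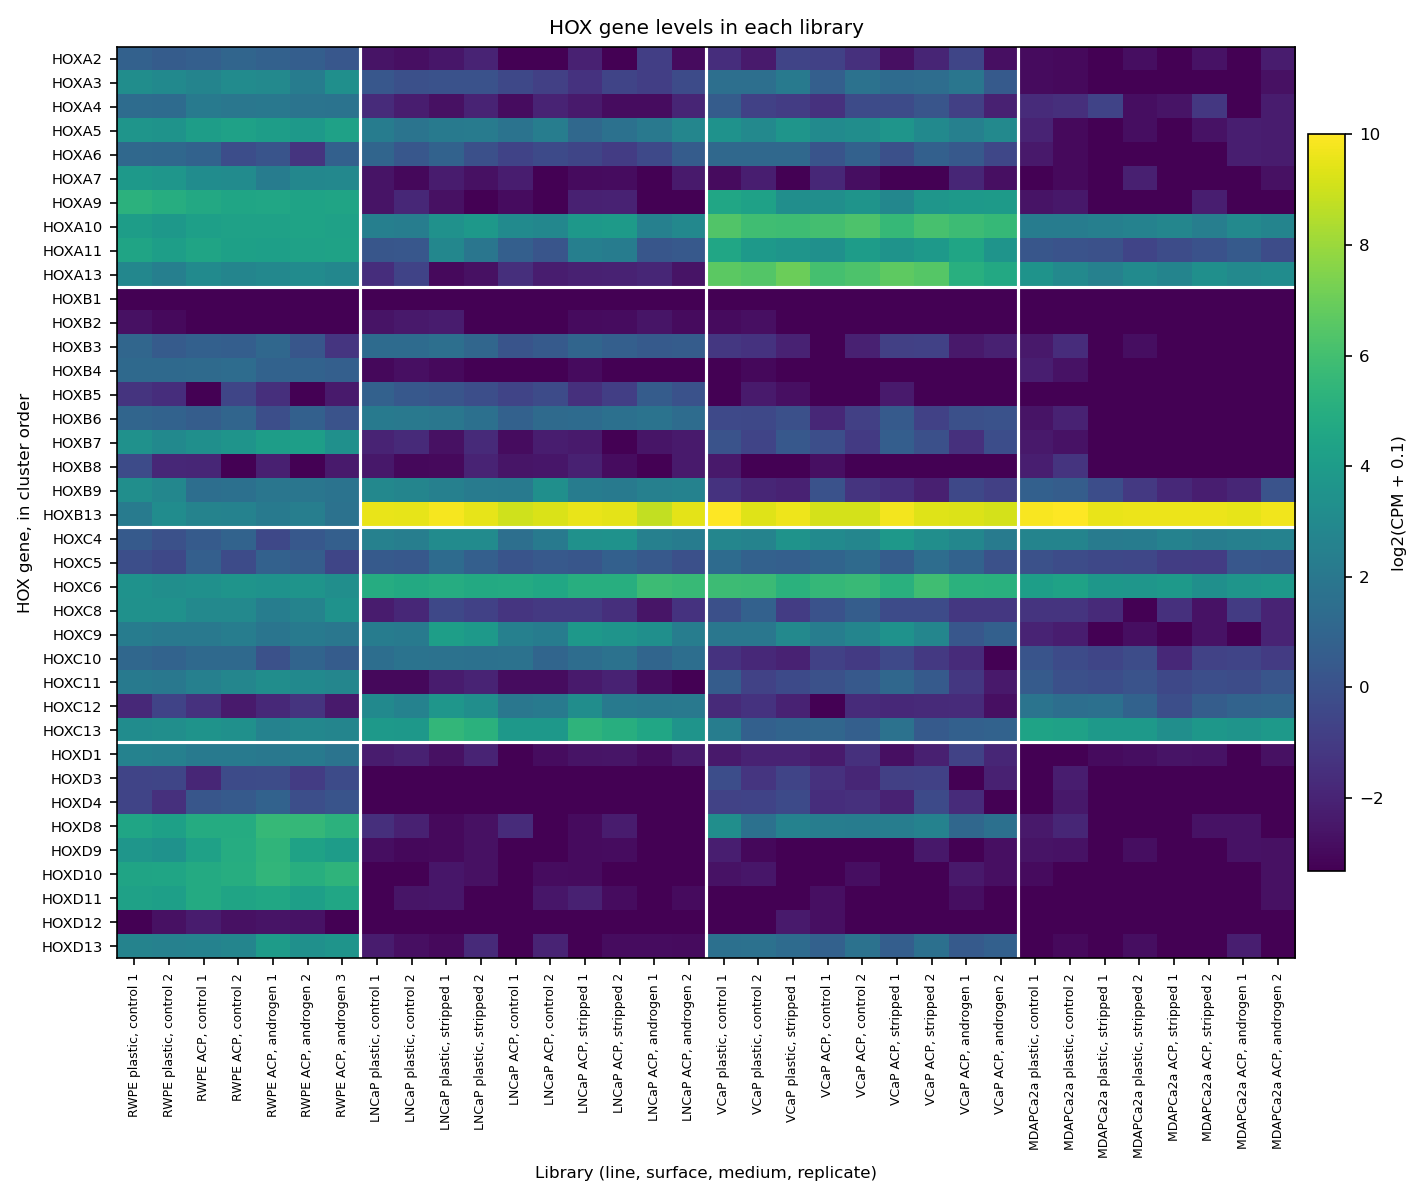
Level of the 38 HOX genes (rows, in cluster order) in each of the 34 libraries (columns, grouped by line), as log2 of CPM plus 0.1. HOXB13 is the brightest row in the 3 cancer lines, and the HOXD rows carry signal in RWPE, with weaker signal in VCaP.

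HOXB13 was present in every library and separated the cancer lines from RWPE without overlap. It was at 3.20, 5.06 and 8.89 CPM (lowest, median and highest of 7 libraries) in RWPE, which rests on 70 to 347 reads per library. In LNCaP it was at 443, 713 and 917 CPM (10 libraries), in VCaP at 558, 654 and 1066 CPM (9 libraries) and in MDAPCa2a at 725, 780 and 1006 CPM (8 libraries). The lowest of the 27 cancer libraries was 49.9 times above the highest RWPE library. HOXB13 alone took 66.6% to 94.3% of the summed HOX CPM in a cancer library and 1.04% to 3.44% in an RWPE library.

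On plastic in control medium HOXB13 was at 6.72 ± 3.1 CPM in RWPE (SD, n = 2, as for all values with ± below unless stated), 740 ± 29 in LNCaP, 860 ± 291 in VCaP and 969 ± 52 in MDAPCa2a. Against RWPE the log2 differences were 6.80 ± 0.33 (SE, adjusted p = 3.23e-14), 7.02 ± 0.33 (SE here and for all log2 differences, adjusted p = 1.58e-14) and 7.18 ± 0.34 (adjusted p = 1.12e-14) in edgeR's quasi-likelihood test. On ACP with androgen the same differences were 7.09 ± 0.28, 7.18 ± 0.29 and 7.55 ± 0.29, from 4.24 ± 0.95 CPM in RWPE (n = 3). The 3 cancer lines were not told apart by this gene on plastic: VCaP minus LNCaP was 0.22 ± 0.25 (adjusted p = 0.498), MDAPCa2a minus LNCaP 0.38 (adjusted p = 0.25) and MDAPCa2a minus VCaP 0.16 (adjusted p = 0.615). With androgen on ACP they were 0.09 (adjusted p = 0.787), 0.46 (adjusted p = 0.148) and 0.37 (adjusted p = 0.236). The second of these became a call, 0.82 with adjusted p = 0.0399, without LNCaP ACP androgen replicate 2.

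Within a line HOXB13 passed the threshold in none of the 15 comparisons of surface or medium. In LNCaP it was at 760 and 719 CPM on plastic in control medium, 917 and 726 on plastic in stripped serum, 518 and 606 on ACP in control medium, 744 and 707 on ACP in stripped serum, and 443 and 691 with androgen. Androgen against stripped serum gave a log2 difference of -0.36 ± 0.19 (adjusted p = 0.262) in LNCaP. Without replicate 2, the higher androgen library, it was -0.70 with adjusted p = 0.0216. In VCaP the same comparison gave -0.34 ± 0.26 (863 and 654 against 636 and 567 CPM, adjusted p = 0.395) and in MDAPCa2a -0.03 ± 0.17 (772 and 775 against 725 and 832 CPM, adjusted p = 0.986). A p that misses the threshold does not show equal levels.

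**Figure D2:**
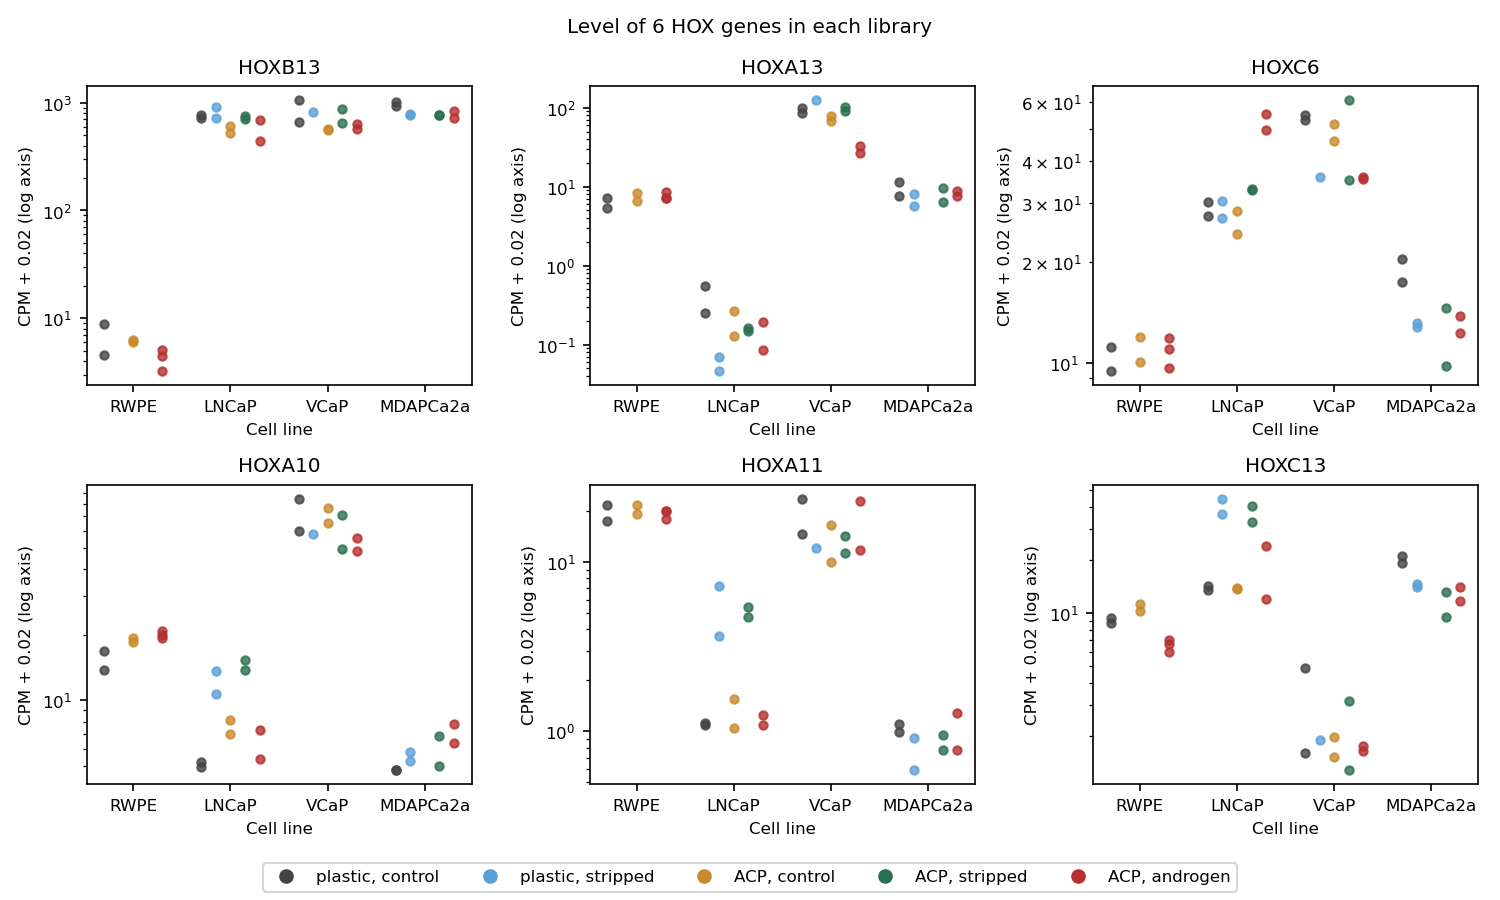
CPM plus 0.02 on a log axis for HOXB13, HOXA13, HOXC6, HOXA10, HOXA11 and HOXC13, 1 point per library, by line and group. The RWPE points of HOXB13 lie at 3.20 to 8.89 CPM and those of the cancer lines at 443 to 1066 CPM, while HOXA13 is lowest in LNCaP and highest in VCaP.

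PRAC1 and PRAC2, small genes that lie next to HOXB13 on the chromosome and are known from prostate and rectum, had means in the same order of lines as HOXB13 on plastic. PRAC1 was highest in MDAPCa2a at 164 ± 5.7 CPM, with 57.1 ± 32.2 in VCaP, 50.1 ± 10.6 in LNCaP and 0.577 ± 0.020 in RWPE. Its log2 differences from RWPE were 6.45 ± 0.60 in LNCaP, 6.63 ± 0.60 in VCaP and 8.15 ± 0.63 in MDAPCa2a. PRAC2 rose from 0.0781 CPM in RWPE to 11.4, 15.1 and 21.7 CPM, by log2 7.12, 7.52 and 8.04. With androgen on ACP the differences from RWPE were 4.99, 6.54 and 8.74 for PRAC1 and 6.94, 8.12 and 9.05 for PRAC2. Unlike HOXB13, both passed the threshold for androgen in LNCaP, where PRAC1 fell from 83.7 to 16.9 CPM (log2 -2.32 ± 0.32) and PRAC2 from 13.9 to 4.97 CPM (log2 -1.49). PRAC1 also fell in VCaP, from 162 to 49.0 CPM (log2 -1.72), a call lost without ACP stripped replicate 1 (-1.64) or ACP androgen replicate 2 (-1.33). Whether these changes differ from that of HOXB13 was not tested.

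Apart from HOXB13, RWPE had the highest summed level of HOX transcripts and MDAPCa2a the lowest. The sum of the other 37 genes was 249.5, 304 and 349 CPM (lowest, median and highest library) in RWPE, 164, 270 and 342 in VCaP, 81.2, 117 and 159 in LNCaP and 46.4, 51.1 and 72.1 in MDAPCa2a. RWPE and VCaP overlapped, and LNCaP and MDAPCa2a did not. The makeup differed more than the sum. HOXD genes summed to a median of 126 CPM in RWPE (82.4 to 180), 7.33 in VCaP (4.24 to 14.1), 0.287 in LNCaP (0.0690 to 0.506) and 0.151 in MDAPCa2a (0.0333 to 0.443). HOXA genes summed to 192 CPM in VCaP (112 to 250) and 111 in RWPE (102 to 126), against 16.3 in LNCaP (12.3 to 25.1) and 15.4 in MDAPCa2a (12.3 to 17.9). HOXC was the evenest cluster, with medians of 88.6 CPM in LNCaP, 68.0 in VCaP, 42.0 in RWPE and 36.6 in MDAPCa2a. HOXB without HOXB13 was low throughout, at a median of 0.602 CPM in MDAPCa2a, 1.97 in VCaP, 11.2 in LNCaP and 21.2 in RWPE. In bulk RNA, fewer cells with a transcript and less of it per cell cannot be told apart.

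**Figure D3:**
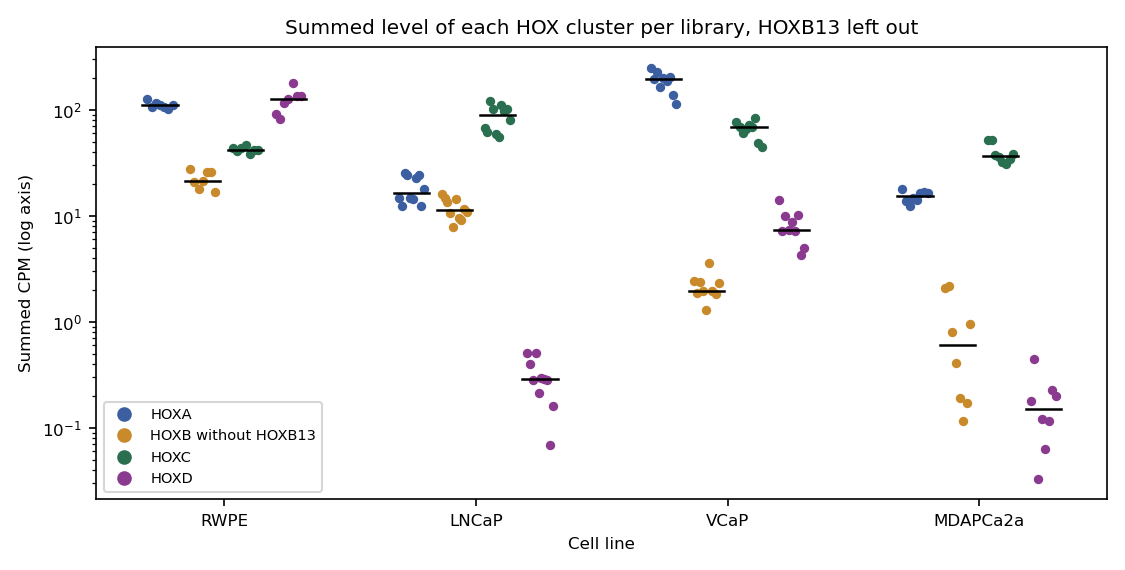
Summed CPM of each HOX cluster per library, HOXB without HOXB13, with a black line at the median of each line. HOXD sums lie at 82.4 to 180 CPM in RWPE and at 14.1 CPM or less in the cancer lines, and HOXA sums are highest in VCaP and RWPE.

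In LNCaP and MDAPCa2a most HOX genes called lower than in RWPE on plastic had too few reads to pass the count filter within the cancer line (17 of 22 and 22 of 27), against 6 of 18 in VCaP. Calls are at an adjusted p below 0.05 (edgeR, Benjamini-Hochberg over all genes tested), and 35 of the 38 genes had enough reads to be tested. LNCaP had 6 HOX genes higher and 22 lower on plastic, where 57.4% of all genes tested were called (29.5% higher and 27.9% lower). On ACP with androgen it had 8 higher and 21 lower, against 66.9% of all genes (32.2% higher and 34.8% lower). VCaP had 6 HOX genes higher and 18 lower on plastic, where 62.4% of all genes tested were called (32.1% higher and 30.3% lower). On ACP with androgen it had 5 higher and 22 lower, against 67.4% of all genes (32.8% higher and 34.6% lower). MDAPCa2a had 6 HOX genes higher and 27 lower on plastic, where 56.7% of all genes tested were called (28.3% higher and 28.4% lower). On ACP with androgen it had 4 higher and 26 lower, against 64% of all genes (29.9% higher and 34.2% lower). The members' own shares were 80%, 68.6% and 94.3% on plastic and 82.9%, 77.1% and 85.7% with androgen. These counts include genes that passed the count filter only through the line where they are high, such as HOXD9, HOXD10 and HOXD11 in RWPE, which then had to come out lower. Among the 16 members that passed the filter within LNCaP and within RWPE, 4 were higher and 5 lower in LNCaP on plastic (median log2 difference 0.30) and 6 and 5 with androgen (0.48). For MDAPCa2a 11 members passed in both lines, and 5 were higher and 5 lower on plastic (0.20) and 3 and 5 with androgen (-0.11). VCaP kept more lower than higher calls: of 27 members that passed in both lines 6 were higher and 12 lower on plastic (-0.96), and 5 and 17 with androgen (-1.93). The medians of all genes tested were 0.01, 0.04 and -0.0026 in LNCaP, VCaP and MDAPCa2a on plastic and -0.05, -0.04 and -0.09 with androgen. HOXB13 and HOXC4 were higher than in RWPE in all 6 comparisons.

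**Figure D4:**
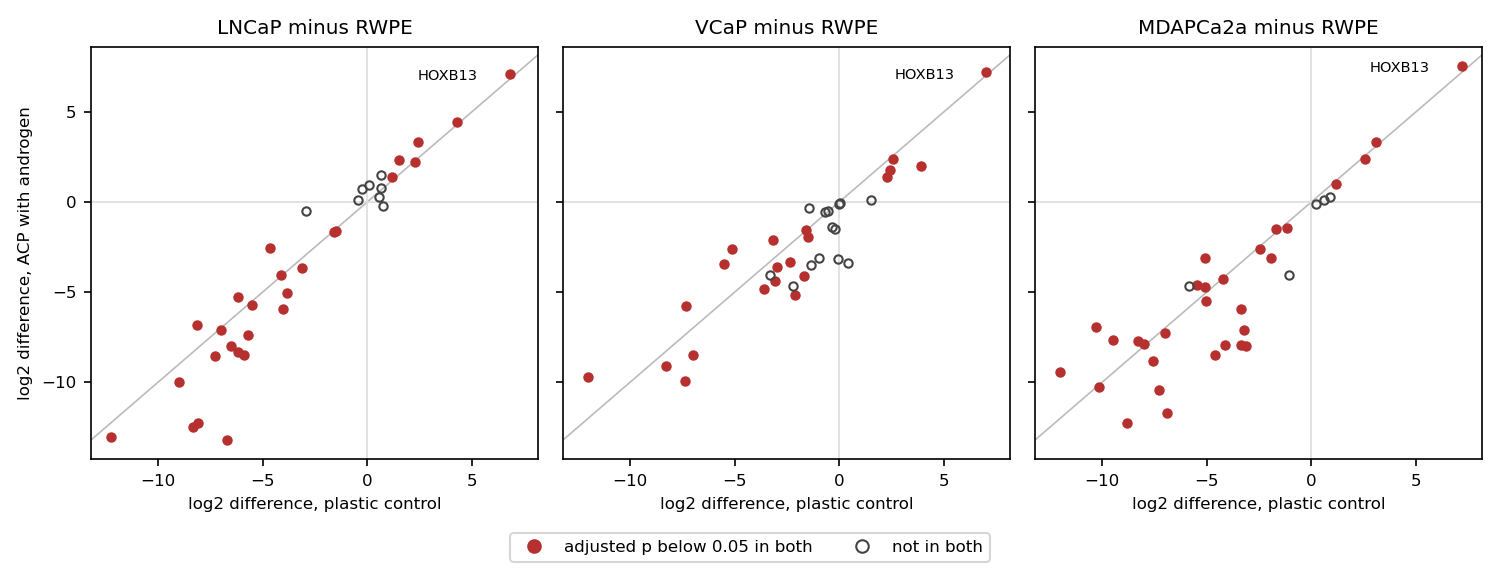
Log2 difference of each cancer line from RWPE for the tested HOX genes, on plastic in control medium (x axis) and on ACP with androgen (y axis); red points had an adjusted p below 0.05 in both. HOXB13 lies at about 7 on both axes in each panel, and most other red points lie below 0.

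Between the cancer lines the share of HOX genes called was above, near or below that of all genes, depending on the pair and the condition. VCaP against LNCaP gave 16 higher and 7 lower on plastic, 65.7% of the HOX genes tested against 52.6% of all genes (27% higher and 25.7% lower), and 11 higher and 9 lower with androgen, 57.1% against 56% (28.5% higher and 27.5% lower). MDAPCa2a against LNCaP gave 2 higher and 12 lower on plastic, 40% of the HOX genes tested against 40.2% of all genes (19.3% higher and 21% lower), and 2 higher and 10 lower with androgen, 34.3% against 45.3% (21.3% higher and 24% lower). MDAPCa2a against VCaP gave 4 higher and 19 lower on plastic, 65.7% of the HOX genes tested against 52.4% of all genes (25.1% higher and 27.3% lower), and 4 higher and 14 lower with androgen, 51.4% against 51.4% (24.5% higher and 26.8% lower). Among members that passed the filter in both lines compared, VCaP had 6 higher and 5 lower than LNCaP on plastic and 3 and 7 with androgen (16 members), MDAPCa2a had 0 higher and 4 lower than LNCaP on plastic and 0 and 3 with androgen (10 members), and MDAPCa2a had 3 higher and 5 lower than VCaP on plastic and 3 and 4 with androgen (11 members). HOXC6 was the gene called in both conditions in opposite directions, VCaP being higher than LNCaP on plastic (log2 0.91 ± 0.20, adjusted p = 0.000612) and lower with androgen (log2 -0.55 ± 0.20, adjusted p = 0.0252). The second call was lost without LNCaP androgen replicate 1 (-0.47) or either VCaP androgen replicate (-0.56 each).

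RWPE stood above the cancer lines in most of its HOXD genes. In 14 genes of the 4 clusters (40% of the HOX genes tested) every RWPE library lay above every library of the other lines (10.1% of all genes did so): HOXD1, HOXD8, HOXD9, HOXD10, HOXD11 and HOXD13, with HOXA2, HOXA3, HOXA4, HOXA7, HOXB4, HOXB7, HOXC8 and HOXC11. HOXA7, HOXB4, HOXD9, HOXD10 and HOXD11 passed the count filter within RWPE alone. Each of the others failed it within LNCaP or MDAPCa2a. Genes that entered only through the line where they are high had to lie lower elsewhere, so this share is no test. Per kilobase of transcript, HOXD8 was the most abundant HOX gene of RWPE, with a median of 20.6 CPM per kb, followed by HOXA9 (16.7), HOXD10 (15.6), HOXD11 (14.3), HOXD9 (10.4) and HOXA5 (10.3).

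HOXD10, a posterior gene of limb and spinal cord patterning, was at 21.7, 31.1 and 43.7 CPM (lowest, median and highest) over the 7 RWPE libraries. No library of the other lines exceeded 0.0856 CPM. On plastic in control medium LNCaP had 0 reads against 22.0 ± 0.4 CPM, so that HOXD10 was at least 679.9-fold lower, taking 3 reads over the group as the limit of a count of 0. MDAPCa2a had 1 read and VCaP 5 reads in that group. With androgen on ACP, LNCaP again had 0 reads against 39.0 ± 5.6 CPM (n = 3) and was at least 778-fold lower. HOXD11 had the same form, with 18.4, 21.9 and 27.9 CPM in RWPE, 0.130 CPM at most elsewhere and 0 reads in VCaP and MDAPCa2a on plastic (at least 484-fold and 443-fold lower).

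HOXD8 and HOXD13 were less reduced in VCaP than in the other cancer lines. HOXD8, a member of the middle of the cluster, was at 20.8 ± 2.5 CPM in RWPE on plastic and 6.34 ± 4.7 in VCaP (9.64 and 3.05), a log2 difference of -1.70 ± 0.42 (adjusted p = 0.00119), against -6.69 ± 0.57 in LNCaP and -7.27 ± 0.61 in MDAPCa2a. The VCaP libraries were far apart, and the difference was -2.74 without the first of them and -1.09 without the second. With androgen on ACP VCaP was at 2.53 ± 0.61 CPM and RWPE at 44.0 ± 6.0 (n = 3), log2 -4.09 ± 0.45. HOXD13, a factor of limb and genital tubercle, was at 5.87 ± 0.33 CPM in RWPE and 2.97 ± 0.14 in VCaP (log2 -0.96, adjusted p = 0.0899 in edgeR over all libraries, but 0.0307 in a fit of that condition only). With androgen it was 12.4 ± 2.8 against 1.43 ± 0.20 CPM (log2 -3.10 ± 0.51). LNCaP was lower, at log2 -6.18 ± 0.69 on plastic (5 and 2 reads) and -8.34 with androgen (1 and 1 reads). With so few reads the size of these differences is imprecise. VCaP was called higher than LNCaP and MDAPCa2a for both genes, on plastic and with androgen. The lowest HOXD13 library of RWPE was still above the highest of VCaP over all conditions.

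HOXA10 and HOXA13 were highest in VCaP, at a share of genes near the background. Every VCaP library was above every library of the other lines for these 2 genes (5.71% of the HOX genes tested and 5.77% of all genes). For HOXC13 every VCaP library was below (1 gene; 2.86% and 4.14%). The other posterior HOXA genes had higher medians over all libraries in RWPE than in VCaP. HOXA9 was at 23.9 against 12.8 CPM and HOXA11 at 19.9 against 14.3 CPM. HOXA13, the paralog of HOXB13 that patterns the hindgut and urogenital sinus, was at 92.9 ± 11 CPM in VCaP on plastic, 6.24 ± 1.3 in RWPE, 9.54 ± 2.8 in MDAPCa2a and 0.381 ± 0.21 in LNCaP. The small excess of MDAPCa2a over RWPE (log2 0.62 ± 0.26, adjusted p = 0.0481) was lost under 7 of 10 alternatives: without RWPE plastic control replicate 2 (0.43) or MDAPCa2a plastic control replicate 1 (0.29), with RLE size factors (0.53), without the filter (0.61), with the replicate block (0.62), by DESeq2 (0.53) and in a fit of that condition only (0.59). With androgen it was 0.13 (adjusted p = 0.677). VCaP exceeded RWPE by log2 3.91 ± 0.29 (adjusted p = 2.06e-11) and LNCaP by 7.92 ± 0.36 (adjusted p = 1.2e-14). With androgen on ACP the excess over RWPE was 1.99 ± 0.24. In LNCaP every library was below every library of the other lines for HOXA13 (1 gene; 2.73% of all genes), which did not pass the count filter within LNCaP.

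HOXA10, a uterine and prostatic patterning gene, was at 72.3 ± 17 CPM in VCaP on plastic, 15.3 ± 2.1 in RWPE, 5.08 in LNCaP and 4.76 in MDAPCa2a. VCaP was higher than RWPE by log2 2.26 ± 0.21 (adjusted p = 1.92e-09) while LNCaP was lower, at log2 -1.57 ± 0.21, and MDAPCa2a at -1.68. With androgen these were 1.40, -1.64 and -1.48. HOXA9, a regulator of blood progenitors, was at 34.3 ± 4.4 CPM in RWPE and 21.4 ± 2.9 in VCaP (log2 -0.66, adjusted p = 0.0575 in edgeR over all libraries). DESeq2 called it lower in VCaP (-0.66, adjusted p = 0.0253), as did edgeR in a fit of that condition only (adjusted p = 0.0202), and with androgen it was -0.53 (adjusted p = 0.0958). LNCaP and MDAPCa2a were lower, at log2 -8.10 ± 0.45 and -8.80 ± 0.49, and had no HOXA9 reads with androgen. Per kilobase, HOXA10 was the second HOX gene of VCaP with a median of 27.7 CPM per kb, after HOXB13 (189) and before HOXC6 (19.7) and HOXA13 (16.98).

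HOXC genes made up most of what the other cancer lines expressed beside HOXB13. Per kilobase LNCaP had HOXB13 at 206, HOXC6 at 12.96, HOXC13 at 7.86 and HOXC9 at 5.06 CPM per kb, and MDAPCa2a had HOXB13 at 225, HOXC13 at 5.82, HOXC6 at 5.75 and HOXC4 at 3.56. HOXC6, a gene often measured in prostate cancer expression panels, was at 10.3 ± 1.2 CPM in RWPE on plastic, 28.8 in LNCaP (log2 1.51), 54.1 in VCaP (2.41) and 18.9 in MDAPCa2a (0.89, adjusted p = 0.00079). In MDAPCa2a the difference did not pass on ACP with androgen (log2 0.29, adjusted p = 0.202). HOXC4 was the gene that, with HOXB13, lay below all cancer libraries in every RWPE library (2 genes; 8.31% of all genes did so). It was at 1.09 ± 0.28 CPM in RWPE on plastic, 5.32 in LNCaP (log2 2.30 ± 0.32), 6.45 in VCaP (2.57 ± 0.32) and 6.44 in MDAPCa2a (2.56 ± 0.32), and with androgen the differences were 2.19, 2.39 and 2.36. HOXC4, HOXC5 and HOXC6 share exons in the annotation, so their reads may be split between them.

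HOXC12 and HOXC13, the posterior end of the cluster, were unequal between lines. HOXC12 was at 6.999 ± 1.4 CPM in LNCaP, 3.07 ± 0.5 in MDAPCa2a and 0.363 ± 0.25 in RWPE on plastic, log2 4.26 ± 0.55 and 3.06 ± 0.55 above RWPE (4.43 and 3.32 with androgen). Its LNCaP libraries lay above those of all other lines (1 gene; 3.02% of all genes did so), and it did not pass the count filter within RWPE or VCaP. HOXC13, which is needed for hair and nail keratins, was higher than in RWPE in MDAPCa2a (20.1 CPM, log2 1.16 ± 0.36, adjusted p = 0.00728, lost without RWPE plastic control replicate 1 at 1.08), lower in VCaP (3.24 CPM, log2 -1.48 ± 0.37) and not called in LNCaP (13.9 CPM, log2 0.64, adjusted p = 0.128). The VCaP libraries were at 4.89 and 1.58 CPM, and the difference was -2.48 without the first and -0.87 without the second. With androgen MDAPCa2a was at 1.00, VCaP at -1.93 and LNCaP at 1.47 (adjusted p = 0.00033), the last being 0.89 without LNCaP ACP androgen replicate 1. MDAPCa2a had no gene above all other lines (0 of 35; 2.74% of all genes) and 5 below them, HOXA3, HOXA5, HOXA6, HOXB6 and HOXC9 (14.3% of the HOX genes tested and 2.6% of all genes). None of these 5 passed the count filter within MDAPCa2a, so they entered through the lines where they are higher and this share is no test. Its HOXC9 level was 0.131 CPM against 4.36 in RWPE (log2 -5.01 ± 0.48), and with androgen all its reads were in 1 of the 2 libraries (log2 -5.50).

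In the HOXB cluster no gene but HOXB13 reached a median of 10 CPM in a cancer line. HOXB7 was at 9.31 ± 2.0 CPM in RWPE on plastic and lower, at log2 -5.69 in LNCaP, -3.58 in VCaP and -6.91 in MDAPCa2a. With androgen it was at -7.40 in LNCaP and -4.82 in VCaP, and MDAPCa2a had no reads. HOXB6 was called higher than in RWPE in LNCaP in both conditions, and HOXB9 had a median there of 5.53 CPM (4.18 to 9.71). HOXB5 was called higher in LNCaP than in RWPE on plastic (1.68 and 1.17 against 0.296 and 0.231 CPM), but not by DESeq2 (adjusted p = 0.202) nor without any 1 of the 4 libraries (log2 2.15 to 2.68).

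The ACP surface left few HOX calls in control medium. In RWPE 1 of 32 tested genes changed (4.16% of all genes did): HOXB9, a gene of the thorax and mammary gland, was at 9.54 and 7.07 CPM on plastic and 2.72 and 2.90 on ACP, log2 -1.53 ± 0.27 (adjusted p = 0.0164). The call was lost without plastic control replicate 1 (-1.30), ACP control replicate 1 (-1.48) or ACP control replicate 2 (-1.60). In LNCaP 1 of 18 genes changed (12.6% of all genes): HOXB6 was at 4.19 and 4.12 CPM on plastic and 1.68 and 2.34 on ACP, log2 -0.95 ± 0.28 (adjusted p = 0.04996). Fitting all lines together ended this call (-1.05), as did the replicate block (-0.95, adjusted p = 0.0548), removal of the date-like genes (-0.95), and leaving out ACP control replicate 1 (-0.77) or either plastic control replicate (-0.94 and -0.95). For VCaP edgeR called 0 of 27 (0.0448% of all genes), with 1 at an unadjusted p below 0.05 and 0 by DESeq2. These contrasts have the plastic control libraries as their reference.

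Surface comparisons in stripped serum, which use none of those libraries, gave no HOX call with edgeR or DESeq2 in any line. LNCaP had 0 of 18 (6.12% of all genes called), with 4 genes at an unadjusted p below 0.05. VCaP had 0 of 27 (0% of all genes), with 0 genes below that p. MDAPCa2a had 0 of 12 (0.00734% of all genes), with 1.

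Several posterior HOX genes were higher in LNCaP in stripped serum than in control medium, on both surfaces. On plastic 4 of 18 genes were higher and 0 lower in stripped serum (9.45% of all genes changed, 4.61% upward and 4.84% downward). HOXA11, a gene of uterine and limb patterning, was at 1.07 and 1.11 CPM in control medium and 7.17 and 3.64 in stripped serum (log2 2.36 ± 0.34, adjusted p = 0.00194). HOXC9 was at 4.70 and 4.29 against 17.9 and 14.5 CPM (log2 1.90 ± 0.29, adjusted p = 0.00233). HOXC13 was at 14.2 and 13.5 against 44.5 and 36.3 CPM (log2 1.59 ± 0.27, adjusted p = 0.00462). In each of these genes both stripped libraries lay above both controls. Here and in the comparisons within a line below, such separation is no further support. The genes were picked as called, and the share of all genes separated in this way was not computed. HOXA10 was at 5.22 and 4.93 against 10.7 and 13.7 CPM (log2 1.32 ± 0.23, adjusted p = 0.00542). The calls of HOXC13 and HOXA10 were lost without plastic control replicate 1 (1.62 and 1.35) or replicate 2 (1.57 and 1.28), and those of HOXA11 and HOXC9 were kept without each of the 4 libraries. HOXC4, at 5.60 and 5.05 against 8.46 and 8.40 CPM, was not called on plastic.

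On ACP, where no plastic control library enters, 5 of 18 genes were higher in stripped serum and 0 lower (5.37% of all genes changed, 3.28% upward and 2.09% downward). HOXA11 was at 1.54 and 1.03 CPM in control medium and 5.38 and 4.71 in stripped serum (log2 1.95 ± 0.35, adjusted p = 0.00918). HOXC4 was at 2.83 and 4.32 against 10.46 and 11.03 CPM (log2 1.57 ± 0.24, adjusted p = 0.00362). HOXC13 was at 13.7 and 13.9 against 40.4 and 32.7 CPM (log2 1.39 ± 0.27, adjusted p = 0.0139). As on plastic, the libraries of the groups did not overlap for these genes. HOXC9 was at 5.51 and 4.80 against 13.6 and 11.9 CPM (log2 1.29 ± 0.29, adjusted p = 0.0254) and HOXA10 at 8.08 and 6.96 against 13.8 and 15.4 CPM (log2 0.93 ± 0.23, adjusted p = 0.0402). The HOXA11 call was lost without ACP stripped replicate 1 (1.86). Those of HOXC13, HOXC9 and HOXA10 were each lost without ACP control replicate 1 or 2 or ACP stripped replicate 1 or 2 (HOXC13 1.23 to 1.52, HOXC9 1.16 to 1.41, HOXA10 0.80 to 1.06). That of HOXC4 was kept without each library.

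In VCaP stripped serum changed no HOX gene by edgeR or DESeq2, neither on plastic (0 of 27, 4 genes at an unadjusted p below 0.05, 0.89% of all genes called) nor on ACP (0 of 27, 1 gene, 0.82%). MDAPCa2a on plastic had 0 of 12 by either tool (1 gene at an unadjusted p below 0.05, 1.58% of all genes called).

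By edgeR, androgen on ACP lowered 4 of 18 HOX genes in LNCaP and raised 1 (7.73% of all genes changed, 3.77% upward and 3.96% downward). HOXA11 fell from 5.38 and 4.71 CPM in stripped serum to 1.07 and 1.23 (log2 -2.13 ± 0.35, adjusted p = 0.00541). In control medium on ACP it was at 1.54 and 1.03 CPM. HOXA10 fell from 13.8 and 15.4 to 5.39 and 7.27 CPM (log2 -1.21 ± 0.23, adjusted p = 0.0116), and HOXC4 from 10.46 and 11.03 to 5.42 and 4.77 CPM (log2 -1.08 ± 0.23, adjusted p = 0.0181). These 3 genes, picked as called, had no overlap between the groups of 2 libraries, which is no further support. HOXC13 fell from 40.4 and 32.7 to 23.9 and 11.9 CPM (log2 -1.03 ± 0.27, adjusted p = 0.0396), with the androgen libraries far apart, and its call was lost without stripped replicate 1 (-0.88), stripped replicate 2 (-1.16) or androgen replicate 2 (-0.60) and in a fit of all lines (-1.02). HOXC6 was the gene that edgeR called higher, from 33.1 and 32.9 to 55.3 and 49.6 CPM (log2 0.66 ± 0.15, adjusted p = 0.0248). DESeq2 called 6 genes, adding HOXA5, at 2.14 and 3.02 CPM in stripped serum and 4.07 and 6.82 with androgen. The androgen comparison shares its stripped libraries with stripping on ACP, but none with stripping on plastic. The HOXA11 call was lost without ACP stripped replicate 1 (-2.04). Those of HOXA10 and HOXC4 were lost without stripped replicate 1 (-1.30 and -1.13), stripped replicate 2 (-1.11 and -1.03) or androgen replicate 1 (-1.02 and -1.19), and that of HOXC6 without the same libraries (0.66, 0.67 and 0.57) and in a fit of all lines (0.68). HOXA10, HOXA11, HOXC9 and HOXC13 overlap antisense transcripts, and whether counting used strand is not given in the sources used here, so reads of the sense and antisense genes cannot be told apart.

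In VCaP androgen lowered 3 of 27 HOX genes and raised none by edgeR (17.5% of all genes changed, 8.67% upward and 8.8% downward). HOXA13 fell from 102 and 90.6 CPM in stripped serum to 33.2 and 26.5 (log2 -1.69 ± 0.20, adjusted p = 0.00137). HOXC9 fell from 10.9 and 6.93 to 1.11 and 1.61 CPM (log2 -2.71 ± 0.38, adjusted p = 0.00281). HOXC11 fell from 2.07 and 1.26 to 0.343 and 0.0871 CPM (log2 -2.92 ± 0.78, adjusted p = 0.0301). None of the 3 overlapped between groups, which is no further support for genes picked as called. The HOXC11 call was lost without ACP stripped replicate 1 (-2.48) or ACP androgen replicate 2 (-2.27). The other VCaP libraries held HOXA13 at 100 and 85.3 CPM on plastic in control medium, 127 on plastic in stripped serum and 68.3 and 78.0 on ACP in control medium, so that the androgen libraries were the lowest of the line. The calls of HOXA13 and HOXC9 were kept without each library.

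In RWPE androgen medium was compared with control medium on ACP and 3 of 32 genes changed (19.1% of all genes did). HOXD13 was at 5.95 and 6.53 CPM in control medium and 15.5, 10.1 and 11.8 with androgen (log2 1.01 ± 0.24, adjusted p = 0.0215). HOXD8 was at 29.3 and 29.7 against 47.7, 47.3 and 37.0 CPM (log2 0.60 ± 0.18, adjusted p = 0.0409). HOXC13 was at 11.2 and 10.3 against 5.96, 7.02 and 6.63 CPM (log2 -0.70 ± 0.19, adjusted p = 0.0312). The libraries did not overlap, which is no further support for genes picked as called, and the calls were fragile. HOXD13 was lost without ACP control replicate 1 (0.89) or 2 (1.10), HOXD8 without ACP control replicate 1 (0.52) or 2 (0.63) or androgen replicate 1 (0.53) or 2 (0.54), and HOXC13 without ACP control replicate 1 (-0.69) or 2 (-0.74) or androgen replicate 1 (-0.64). All 3 were lost in a fit of all lines (0.99, 0.58 and -0.72). In MDAPCa2a edgeR called 0 of 12 HOX genes (0% of all genes), with 1 at an unadjusted p below 0.05 and 0 by DESeq2.

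**Figure D5:**
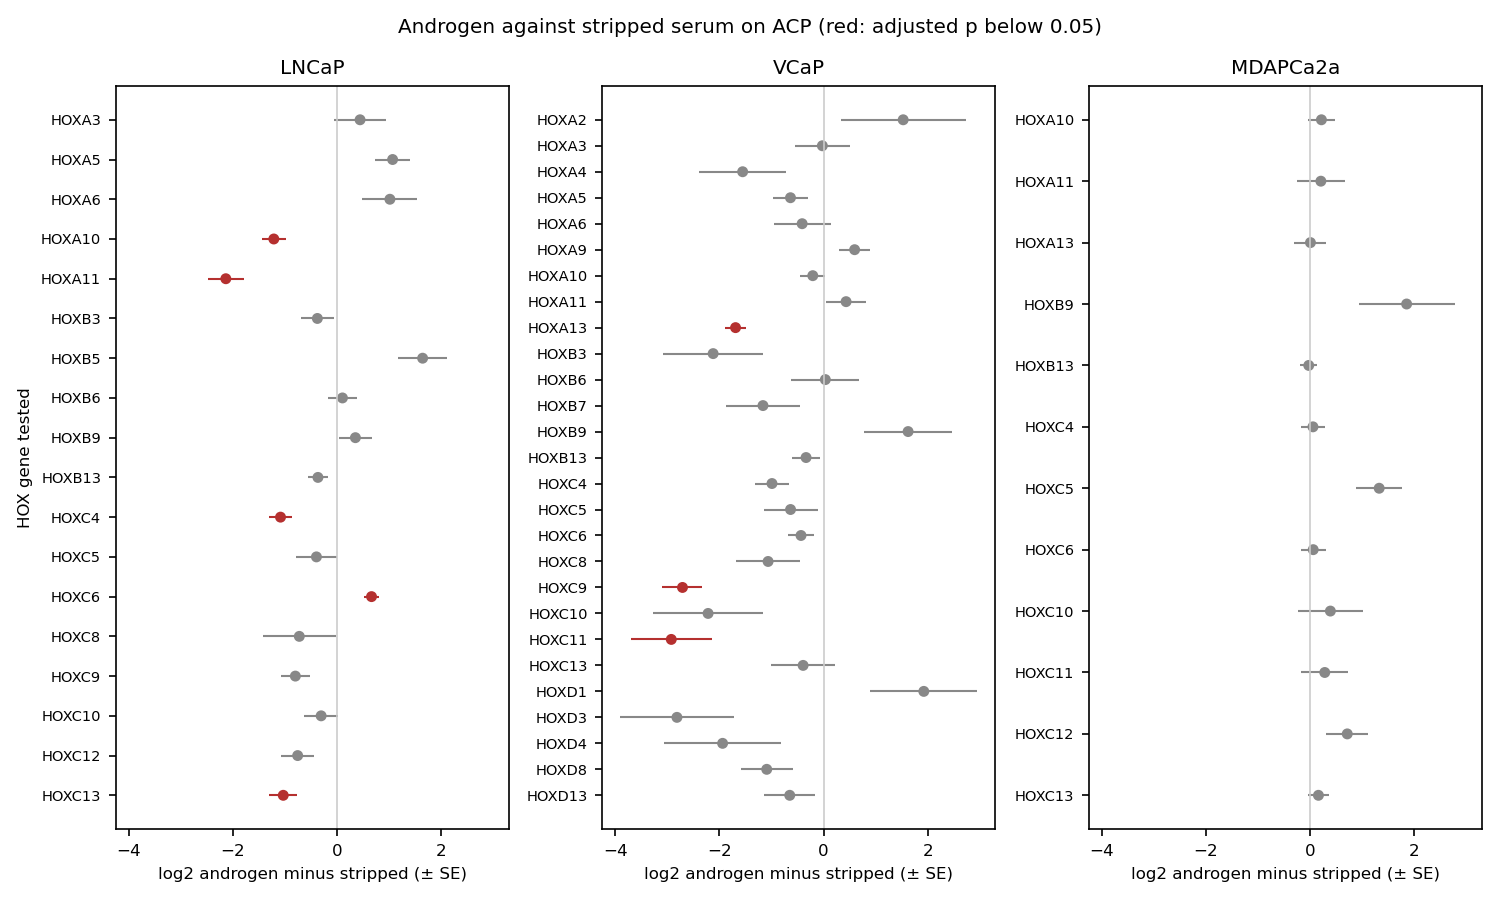
Log2 difference with SE of androgen minus stripped serum on ACP for the HOX genes tested in LNCaP (18), VCaP (27) and MDAPCa2a (12); red points had an adjusted p below 0.05. The red points lie below 0 apart from HOXC6 in LNCaP, and MDAPCa2a has none.

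The androgen effect itself was compared between lines in a fit of all libraries. Between VCaP and LNCaP it differed for 6 of 35 HOX genes (10.9% of all genes). HOXA11 had the smallest adjusted p, with a difference of log2 2.55 ± 0.49 (adjusted p = 0.00183, 1.99 to 2.93 without any 1 library, called each time): it fell in LNCaP and was at 11.3 and 14.3 CPM without and 22.8 and 11.7 with androgen in VCaP. HOXC9 differed by -1.92 ± 0.50 (adjusted p = 0.0149), its level going from 13.6 and 11.9 to 9.77 and 4.97 CPM in LNCaP. HOXC6 differed by -1.11 ± 0.29 (adjusted p = 0.0143): in VCaP it was at 35.2 and 61.1 CPM without and 35.9 and 35.4 with androgen. HOXA5 differed by -1.73 ± 0.48 (adjusted p = 0.0212), with 2.14 and 3.02 CPM without and 4.07 and 6.82 with androgen in LNCaP, and 12.03 and 7.99 against 5.40 and 7.49 in VCaP. HOXA10 differed by 0.99 ± 0.29 (adjusted p = 0.0318). HOXA9 differed by 5.53 ± 1.41 (adjusted p = 0.0144), on 4 and 4 reads in LNCaP without androgen and 0 with it. It did not pass the count filter within LNCaP, and its size depends on the prior count and is no bound. Of the 16 members that passed within both lines, 5 differed. Apart from HOXA11 each of these calls was lost when single libraries were left out, for at least 2 choices of the library. The differences kept their sign in those fits, which have 1 library fewer in a group of 2. HOXA5 was lost without LNCaP stripped replicate 1 (-1.497), LNCaP androgen replicate 2 (-1.30), VCaP stripped replicate 1 (-1.40) or VCaP androgen replicate 1 (-1.51). HOXC9 was lost without LNCaP stripped replicate 2 (-1.83), LNCaP androgen replicate 1 (-1.36), VCaP stripped replicate 1 (-1.56) or VCaP androgen replicate 1 (-1.68). HOXC6 was lost without LNCaP androgen replicate 1 (-1.03) or VCaP stripped replicate 2 (-0.67), and HOXA9 without LNCaP androgen replicate 1 (5.53) or 2 (5.52). HOXA10 was lost without any 1 of 6 of the 8 libraries (0.75 to 1.06), all but LNCaP androgen replicate 2 and VCaP stripped replicate 2. MDAPCa2a differed from LNCaP in 1 of 35 genes (1.12% of all genes), HOXA10, by 1.45 ± 0.31 (adjusted p = 0.0163), from 5.92 CPM without to 7.07 with androgen in MDAPCa2a. It was lost without LNCaP stripped replicate 2 (1.37), LNCaP androgen replicate 1 (1.25) or MDAPCa2a androgen replicate 1 (1.31). For HOXB13 the difference was 0.01 ± 0.36 (adjusted p = 1.00) in VCaP and 0.36 ± 0.36 (adjusted p = 0.819) in MDAPCa2a.

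The noncoding RNAs of the clusters were also different between lines. Of 11 tested, 1 was higher and 7 lower than in RWPE in LNCaP on plastic, 2 and 5 in VCaP, and 2 and 8 in MDAPCa2a, with median log2 differences of -2.38, -1.28 and -3.67. These calls are 72.7%, 63.6% and 90.9% of the list, against 57.4%, 62.4% and 56.7% of all genes, so that VCaP was at the background. As with the HOX genes, genes of this and later lists may pass the count filter only through the line where they are high. Calls among genes passing within both lines were not counted for these lists, so their shares are no test. With androgen 1 was higher and 8 lower in LNCaP, 2 and 9 in VCaP and 1 and 9 in MDAPCa2a, or 81.8%, 100% and 90.9% of the list, against 66.9%, 67.4% and 64% of all genes. HOTTIP, transcribed beside HOXA13, was at 50.8 ± 27.0 CPM in VCaP and 0.261 ± 0.065 in RWPE (log2 7.59 ± 0.57, adjusted p = 3.78e-11, 5.79 with androgen), and it fell with androgen in VCaP from 47.3 to 12.1 CPM (log2 -1.97 ± 0.38, adjusted p = 0.00936, lost without ACP androgen replicate 2 at -1.60). HAGLR, of the HOXD cluster, was at 22.3 ± 4.0 CPM in RWPE and lower, at log2 -4.05 ± 0.35 in LNCaP, -2.29 in VCaP and -7.93 ± 0.48 in MDAPCa2a. With androgen it was at -5.22 in LNCaP and -2.05 in VCaP, and MDAPCa2a had no reads. HOXA11-AS, antisense to HOXA11, rose in LNCaP in stripped serum on plastic from 1.61 to 7.74 CPM (log2 2.32 ± 0.28, adjusted p = 0.000859), rose on ACP (log2 2.88 ± 0.31) and fell with androgen from 5.96 to 1.16 CPM (log2 -2.37 ± 0.30, adjusted p = 0.00111). HOTAIRM1, at the anterior end of HOXA, rose with androgen medium in RWPE from 8.59 to 19.1 CPM (log2 1.17 ± 0.25), a call lost without ACP control replicate 1 (1.00) or 2 (1.30) and in a fit of all lines (1.15).

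Of the 11 tested neighbours of the clusters and ParaHox genes, 2 were higher and 1 lower than in RWPE in LNCaP, 4 and 4 in VCaP and 4 and 6 in MDAPCa2a, on plastic (medians 0.04, 0.09 and -0.34). These are 27.3%, 72.7% and 90.9% of the list, against 57.4%, 62.4% and 56.7% of all genes, and LNCaP was thus below the background. With androgen the counts were 2 and 3, 5 and 5, and 4 and 6, or 45.5%, 90.9% and 90.9%, against 66.9%, 67.4% and 64% of all genes. EVX1, a homeobox gene beyond HOXA13, was at 7.17 CPM in VCaP and 0.0128 in RWPE, too few reads there for a fold, and fell with androgen in VCaP from 12.03 to 1.73 CPM (log2 -2.80 ± 0.41).

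Of 9 TALE cofactors, the PBX, MEIS and PKNOX proteins that bind DNA beside HOX proteins, 1 was higher and 4 lower in LNCaP than in RWPE on plastic, 4 and 2 in VCaP and 2 and 4 in MDAPCa2a (medians -0.85, -0.07 and -0.21). These are 55.6%, 66.7% and 66.7% of the list, against 57.4%, 62.4% and 56.7% of all genes. With androgen the counts were 1 and 6, 3 and 3, and 1 and 3 of the 9, where 66.9%, 67.4% and 64% of all genes were called. LNCaP was above that share, VCaP near it and MDAPCa2a below it. MEIS2 was the largest fall in LNCaP, from 13.2 to 0.149 CPM (log2 -6.40 ± 0.65), and was lower, at log2 -7.08 in VCaP and -6.33 in MDAPCa2a (-4.86, -8.55 and -7.40 with androgen). PKNOX2 was at 13.7 CPM in LNCaP and 0.0903 in RWPE (log2 7.17 ± 0.72), and at 4.40 ± 3.64 CPM in LNCaP with androgen, where RWPE had no reads.

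Polycomb proteins keep silent HOX genes silent and Trithorax proteins keep active ones active. Of 21 Polycomb genes 7 were higher and 5 lower in LNCaP than in RWPE, 9 and 3 in VCaP and 7 and 1 in MDAPCa2a (medians 0.19, 0.22 and 0.08). CBX2 was the largest rise in LNCaP, at 71.5 against 13.9 CPM (log2 2.38 ± 0.26), and was higher by 2.05 in VCaP and 1.91 in MDAPCa2a (2.90, 2.62 and 2.55 with androgen). EZH2, the Polycomb methyltransferase, fell with androgen in LNCaP from 34.3 to 17.4 CPM (log2 -0.98), a call lost without stripped replicate 1 (-1.02), stripped replicate 2 (-0.94) or androgen replicate 1 (-0.80) and in a fit of all lines (-0.97). Of 13 Trithorax genes 3 were higher and 4 lower in LNCaP, 3 and 2 in VCaP and 2 and 5 in MDAPCa2a (medians -0.05, 0.33 and 0.26). KDM6A, a histone demethylase, was the largest rise in LNCaP, at 230 against 36.01 CPM (log2 2.69 ± 0.18, 2.48 with androgen). On plastic the calls in the Polycomb and Trithorax lists were no more frequent than the 57.4%, 62.4% and 56.7% of all genes called in the same comparisons. With androgen the Polycomb counts were 5 higher and 7 lower in LNCaP, 6 and 7 in VCaP and 8 and 6 in MDAPCa2a, and the Trithorax counts 3 and 4, 5 and 5, and 8 and 5, or 57.1%, 61.9% and 66.7% and 53.8%, 76.9% and 100%, against 66.9%, 67.4% and 64% of all genes.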

How the data were processed

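The authors deposited whole-number read counts per gene symbol, not normalized, for 26336 genes in 34 libraries. Per the submitters' processing notes STAR, HTSeq and hg19 were used. The annotation is not given in the sources used here, nor are tool versions or the use of strand. The table holds 16 values of 12 genes with the form of spreadsheet dates, none of them HOX genes.

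CPM used TMM library sizes over all libraries, and CPM per kb used GENCODE v29 lengths. Genes were tested with edgeR 4.0.16 in R 4.3.3 (limma 3.58.1; quasi-likelihood F test, filterByExpr with a minimum count of 10, Benjamini-Hochberg over all genes tested, threshold 0.05). Comparisons of lines used all libraries (17323 genes, residual df 17), and comparisons within a line that line's libraries (13626 to 15614 genes, df 4 or 5). SE is the absolute log2 difference divided by the square root of F. The procedure was tested on simulated data in which only well-counted genes changed. That test did not cover changes in genes with few reads. A count of 0 was bounded by 3 reads over the group. This covers counting error only. Exons of 14 of the 38 genes overlap another gene on the same strand and of 14 on the opposite strand.

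The members and the lists (TALE cofactors, Polycomb, Trithorax, cluster noncoding RNAs, neighbours with ParaHox) were chosen with earlier results of these data known. Named were HOXB13 throughout, the 3 largest rises and falls per comparison among called members at 1 CPM or more, members at a median of 5 CPM or more in a line, and the largest rise and fall of a list. The other members named, the genes PRAC2, HOTTIP, EVX1, HAGLR, HOXA11-AS, HOTAIRM1 and EZH2 where they fall outside this rule, and the promoters shown were chosen after their values were seen. Alternatives were RLE size factors, no filter, DESeq2 1.42.0, a replicate block, a fit of all lines or of 1 condition, other detection thresholds, leaving out each library and, added after seeing the data, removing the 12 date-like genes and counting only members that pass the filter within both lines compared.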

Additional observations from a re-analysis of the deposited data

Results flagged for a closer look

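The androgen effect on ACP differed between lines, by an interaction test in edgeR over all 34 libraries, for 7 pairs of a HOX gene and a line. As log2 effect in VCaP minus that in LNCaP, these were HOXA5 at -1.73, HOXA9 at 5.53 (no LNCaP reads with androgen and not past the count filter within LNCaP, so that its size is no bound), HOXA10 at 0.99, HOXA11 at 2.55, HOXC6 at -1.11 and HOXC9 at -1.92. As MDAPCa2a minus LNCaP, HOXA10 differed by 1.45. Of the 7, HOXA11 kept its call without each of the 8 libraries compared, at 1.99 to 2.93, and each of the others lost it without at least 2 of them, named with their values in the results above.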

How the results depend on the processing

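Over 203 gene results and 2100 alternative values, 1968 kept direction and side of the threshold, 104 lost the call, 5 gained one and 23 changed sign. Counts of called HOX genes between lines moved by less than 1.5 times in every alternative but 1, chosen after seeing the data, that keeps only members passing the filter within both lines, and fewer genes then enter. In the order LNCaP, VCaP and MDAPCa2a against RWPE they were 28, 24 and 33 on plastic and became 9, 18 and 10, and with androgen were 29, 27 and 30 and became 11, 22 and 8. For VCaP against LNCaP, MDAPCa2a against LNCaP and MDAPCa2a against VCaP they were 23, 14 and 23 on plastic and became 11, 4 and 8, and with androgen were 20, 12 and 18 and became 10, 3 and 7. Within lines they were small and moved. For RWPE on ACP against plastic (1 call) they were 2 without the filter, 5 with the replicate block and 0 to 1 without 1 library, and for LNCaP (1 call) 0 with the replicate block, 0 without the date-like genes, 0 in a fit of all lines and 0 to 1 without 1 library. Without 1 library LNCaP stripping on plastic (4) gave 2 to 4, LNCaP stripping on ACP (5) 1 to 3, LNCaP androgen (5) 0 to 6, RWPE androgen (3) 0 to 4, and the androgen effect of VCaP minus LNCaP (6) 2 to 5. LNCaP androgen gave 8 without the filter, VCaP androgen (3) 5 in a fit of all lines, and RWPE androgen 0 in that fit. MDAPCa2a minus LNCaP (1) gave 2 with RLE size factors, 2 without the filter, 2 with the replicate block, 2 with DESeq2 and 0 to 1 without 1 library. MDAPCa2a had 12 genes detected at 0.5 CPM against 7 at 1 CPM. The cause of these moves was not tested.

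Sign changes touched uncalled differences. Those of HOXB13, without 1 library, ran from -0.17 to 0.52 for VCaP minus LNCaP on plastic, -0.14 to 0.55 for MDAPCa2a minus VCaP on plastic, -0.20 to 0.45 for VCaP minus LNCaP with androgen, -0.51 to 0.46 for RWPE on ACP against plastic, -0.36 to 0.36 for VCaP stripping on plastic, -0.30 to 0.10 for VCaP on ACP against plastic in stripped serum (0.066 with the replicate block), -0.10 to 0.092 for MDAPCa2a androgen (0.015 in a fit of all lines), and -0.28 to 0.37 for the androgen effect of VCaP minus LNCaP (-0.034 with RLE size factors, -0.034 with DESeq2). HOXC9 in LNCaP against RWPE on plastic was -0.019 with RLE size factors, -0.019 with DESeq2 and ran from -0.046 to 0.13 without 1 library. HOXC12 in VCaP against RWPE ran from -1.12 to 0.41 on plastic and from -1.96 to 0.30 with androgen.

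The differences between same-numbered replicates correlated at -0.511 to 0.609 over 25 pairs of groups, 8 of them over 0.1 and 8 under -0.1. Whether some of these libraries share a batch was not tested, and the replicate block moved the counts given above. VCaP stripping on plastic rests on 1 library, which is assumed to vary like the other groups.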
